A study of Mus musculus with 22 samples.

Results

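The RNA of 10 genes of the PD-1 axis and of T cell exhaustion was followed in donor T cells after transplantation. They were Cd274 (PD-L1) and Cd80 (B7-1), which encode ligands, Pdcd1 (PD-1), Ctla4, Lag3, Havcr2 (TIM-3) and Tigit, which encode inhibitory receptors, Entpd1 (CD39), which encodes an ectoenzyme, and Tox and Tox2, which encode transcription factors. The genes were taken by symbol, not by their values, from a count table of 24091 gene names, and all 10 were among the 12841 genes with enough counts to test. The 22 libraries came from CD4 or CD8 T cells of the donor, sorted by flow cytometry on day 7 from the spleen or the colon (called gut here) of lethally irradiated wild-type BALB/c mice. The donors were wild-type C57BL/6 mice, whose spleen and marrow cells were injected intravenously, a transfer between strains that differ in MHC. Recipients got control IgG or an IL-2 blocking monoclonal antibody, here anti-IL-2, on alternate days between day 0 and day 6. Cell type, tissue and treatment make 8 groups, which all share the irradiation, the donor strain and an injected antibody. The series asks what blocking IL-2 does to the IL-2 and STAT5 pathway in these cells. The labels name 3 batches, 181201, 181212 and 190306. The 4 spleen groups and both gut groups given anti-IL-2 had n = 3 libraries, 1 from each batch, while both gut groups given IgG had n = 2, from batches 181212 and 190306. The labels give no age of the animals and do not say whether animals were pooled or shared within a batch, so p-values measure the spread between these libraries, which may be technical. Recipients without PD-L1, also named in the title, were not analysed here.

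PD-1 is an inhibitory receptor that T cells display after activation. When it binds PD-L1 or PD-L2 it recruits the phosphatase SHP-2, which dampens signals from the T cell receptor and from CD28. CD80 is a ligand of CD28 and CTLA-4 and also binds PD-L1 on the same cell surface, so the receptor and ligand genes of this axis are read together. T cells under lasting antigen stimulation display several inhibitory receptors at the same time, a state called exhaustion that depends on TOX. After transplantation between strains, host tissues are a lasting source of antigen for donor T cells, and PD-L1 on host tissue restrains them.

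Coordinates are those of mouse build mm10 with GENCODE release M21, and all 10 genes are annotated as protein coding. Cd274 lies at chr19:29367455-29388095 (plus strand) and Cd80 at chr16:38455561-38496335 (plus). Among the receptors, Pdcd1 lies at chr1:94038305-94052553 (minus), Ctla4 at chr1:60887000-60915832 (plus) and Lag3 at chr6:124904361-124911705 (minus). Havcr2 lies at chr11:46454935-46481255 (plus) and Tigit at chr16:43648867-43664146 (minus). Entpd1 lies at chr19:40612366-40741602 (plus), Tox at chr4:6686353-6991557 (minus) and Tox2 at chr2:163203125-163324170 (plus). Exons of Tox and Cd274 overlap those of an antisense gene that has no row in the table, and the strand setting of the counting is not given in the sources used here, so reads of the antisense partner cannot be told apart from theirs.

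RefSeq promoters (build GRCm38.p6) were found for 8 of the 10 genes, with 13 start sites in all. The 250 bases before 4 of these starts are shown 5′ to 3′ on the strand of the gene, because Pdcd1 heads the axis, Havcr2 and Entpd1 were the members that fell in both spleen populations, and Tox2 had the widest differences.
Pdcd1, chr1:94052554-94052803, minus strand: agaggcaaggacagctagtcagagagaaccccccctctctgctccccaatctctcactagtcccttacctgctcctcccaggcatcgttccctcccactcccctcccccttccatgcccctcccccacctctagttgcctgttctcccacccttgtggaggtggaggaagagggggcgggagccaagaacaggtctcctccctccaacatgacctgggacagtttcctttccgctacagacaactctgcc
Havcr2, chr11:46454681-46454930, plus strand, with a TGANTCA match in capitals: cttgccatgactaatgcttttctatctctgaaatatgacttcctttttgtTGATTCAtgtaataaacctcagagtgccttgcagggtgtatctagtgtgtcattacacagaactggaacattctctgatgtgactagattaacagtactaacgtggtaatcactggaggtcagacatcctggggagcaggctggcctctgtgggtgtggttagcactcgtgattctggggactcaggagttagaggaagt
Entpd1, chr19:40612116-40612365, plus strand: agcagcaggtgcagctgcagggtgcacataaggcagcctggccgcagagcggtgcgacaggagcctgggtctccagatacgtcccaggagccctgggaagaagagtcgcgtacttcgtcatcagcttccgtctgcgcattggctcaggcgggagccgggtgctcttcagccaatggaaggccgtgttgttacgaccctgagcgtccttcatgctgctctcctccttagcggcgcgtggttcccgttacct
Tox2, chr2:163202877-163203126, plus strand: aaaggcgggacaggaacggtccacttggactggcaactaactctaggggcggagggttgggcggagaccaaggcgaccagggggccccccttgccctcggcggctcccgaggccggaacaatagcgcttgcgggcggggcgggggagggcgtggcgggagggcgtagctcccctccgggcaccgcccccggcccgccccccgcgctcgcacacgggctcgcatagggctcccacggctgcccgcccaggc
Each of the 13 windows was searched on both strands for TTCNNNGAA, bound by STAT factors. GAAA followed after 2 bases by another GAAA, as in interferon response elements, was searched too. So was TGANTCA, a loose form of the AP-1 site with any letter in the middle. Havcr2 held the letters TGATTCA at 200 to 194 bases before its start, and Cd80 held them at 42 to 36 bases before its own. Both matches have T in the middle, where the usual AP-1 site has C or G. No other match was found in these windows. Among 32851 mouse promoter windows of the same length, 7.02% held TTCNNNGAA, 2.98% the repeated GAAA and 6.75% TGANTCA. A match describes letters and not a bound site, and the series holds no binding data.

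The sorted cells carried the markers of their labels. Levels in CPM (counts scaled by the effective library size) of Cd4 were 1802 to 2013 and 2330.2 to 2609.9 in spleen and gut CD4 libraries, against at most 7.21 in CD8 libraries. Cd8a was at 912 to 1318 and 1501 to 2130.1 in spleen and gut CD8 libraries, against at most 3.60 in CD4 libraries. Total counts ran from 14628806 to 24518362 per library. Libraries of batch 190306 ran against the other batches in their labelled treatment difference, so treatment results are given with and without them. The labels of that batch were used as given, and whether its treatment labels were exchanged was not tested. If they were, each treatment value of that batch and of the model of all batches would have another meaning. In the labels of 5 CD8 libraries given IgG, source name and description disagree on the tissue, and that of the source name was taken. By that name, markers of epithelium summed to 44.9 to 49.3 CPM in gut and 8.14 to 10.5 CPM in spleen CD8 libraries given IgG. With anti-IL-2 the CD8 sums were 59.4 to 93.8 CPM in the gut and 9.18 to 11.3 CPM in the spleen. In bulk RNA, fewer cells that express a gene and less RNA per cell cannot be told apart.

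Scaled by exon length, Tigit RNA had the highest mean of the 10 over all 22 libraries, at 291 ± 42.8 CPM per kb (mean ± SD, n = 22). Pdcd1 followed at 233 ± 59.3, Lag3 at 169 ± 71.7, Ctla4 at 124 ± 64.5 and Havcr2 at 76.5 ± 36.6. In this mean over all libraries the 5 receptor genes stood above the other members. Cd274 was at 27.9 ± 10.2 CPM per kb, Tox at 25.8 ± 13.8, Entpd1 at 12.5 ± 5.05, Tox2 at 11.1 ± 8.52 and Cd80 at 6.397 ± 3.53. The ranges of mean ± SD of neighbours in this order met, except those of Havcr2 and Cd274. The order was not the same in each population. In CD8 gut cells Pdcd1, at 296 ± 44.6 CPM per kb (n = 5), had a higher mean than Tigit at 269.6 ± 53.5, whereas in CD4 spleen cells Tigit was at 325 ± 22.9 and Pdcd1 at 175 ± 16.1 (n = 6). In CD4 spleen cells Havcr2, at 32.6 ± 15.4, did not stand above Cd274, at 32.6 ± 4.77. The rank of Tigit depends on its annotated exon length of 919 bases. In CPM without that scaling, Pdcd1 (449), Lag3 (357) and Ctla4 (289) had higher means over all libraries than Tigit (267).

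**Figure D1:**
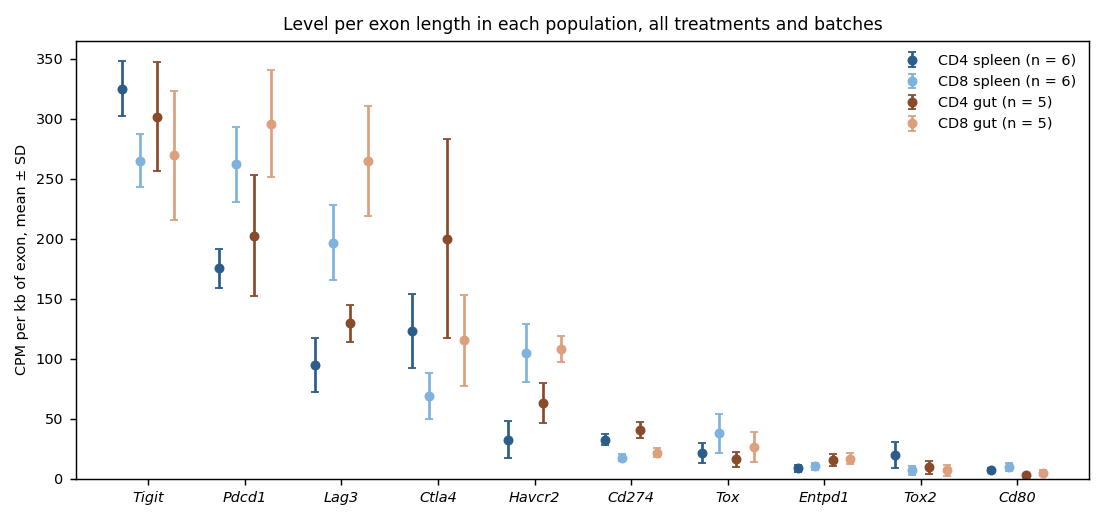
Mean level in CPM per kb of exon (vertical axis) of the 10 genes (horizontal axis) in the 4 populations, over both treatments and all batches, with bars of 1 SD (n = 6 in spleen, n = 5 in gut). The receptor genes stand on the left, from 291 for Tigit to 76.5 for Havcr2 over all 22 libraries, and the other 5 genes lie below 28 on average.

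The labelled treatment was compared first. In batches 181201 and 181212, anti-IL-2 libraries held more Tox and Tox2 RNA than those given IgG, in all 4 populations, more Lag3 in spleen CD8 and in both gut populations, and more Pdcd1 in spleen CD8 and gut CD4 cells. Havcr2 and Entpd1 were lower in both spleen populations, and Tigit was lower in spleen CD4 and gut CD8 cells. Cd274, Cd80 and Ctla4 did not pass in any population. In batch 190306 the differences of Tox, Tox2 and Entpd1 had the opposite sign in each population, and with the 3 batches in 1 model 0 of the 10 genes passed.

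The model of all 3 batches (edgeR, batch as a term) called 0 of the 10 members and 0% of the 12841 genes for anti-IL-2 against IgG in each of the 4 populations. At an unadjusted p under 0.05 it also held 0 members in each population. DESeq2 and limma voom called 0 members as well, and DESeq2 gave 2 members no adjusted p in gut CD8 cells. The SE of these differences was large, with Tox at 0.21 ± 0.59 and Tox2 at 0.23 ± 0.82 on the log2 scale in spleen CD4 cells (± SE), and the batches disagreed. Among the 10 genes in gut CD4 cells, Pdcd1 had the smallest p, with 0.36 ± 0.17 and adjusted p = 0.847. The results that follow therefore keep the batches apart, in a model in which batch 190306 has its own group terms. Its spread came from batches 181201 and 181212, with 2 libraries against 2 in the spleen. In the gut it compared 1 IgG library with 2 anti-IL-2 libraries, and only batch 181212 holds both treatments there.

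In that model 5 of the 10 members were called in spleen CD4 cells (2 higher, 3 lower), where 21% of all genes were called. In spleen CD8 cells 6 were called (4 higher, 2 lower), beside 12.4% of all genes. In gut CD4 cells 4 were called, all higher, beside 12.1%, and in gut CD8 cells 4 (3 higher, 1 lower), beside 11%. The median log2 fold change of the 10 members was 0.13, 0.13, 0.40 and 0.20 in these populations, and that of all genes lay between -0.01 and 0.01. Without batch as a term, 4 calls were lost, Tigit in spleen CD4 (adjusted p = 0.0913), Havcr2 in spleen CD8 (0.142) and Lag3 in gut CD4 (0.258) and gut CD8 cells (0.0872).

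Tox encodes an HMG-box transcription factor needed for exhausted T cells to persist. In spleen CD4 cells the IgG libraries of batches 181201, 181212 and 190306 held 117, 110.1 and 217 CPM of Tox, and the anti-IL-2 libraries 174, 258 and 101. In spleen CD8 cells the same order gave 193, 172 and 383 CPM with IgG and 370.1, 443 and 166 with anti-IL-2. Within batches 181201 and 181212 the groups did not overlap in either population, and in batch 190306 the library labelled anti-IL-2 was the lower. In gut CD4 cells the IgG libraries of batches 181212 and 190306 held 77.1 and 136 CPM and the 3 anti-IL-2 libraries 155, 180.2 and 64.3. In gut CD8 cells they held 114 and 253 CPM and 236, 312 and 84.5 CPM. In all 4 populations the library of batch 190306 had the highest Tox among IgG libraries and the lowest among anti-IL-2 libraries. For batches 181201 and 181212 the log2 fold change was 0.90 ± 0.17 for spleen CD4 (adjusted p = 0.00947), 1.14 ± 0.17 for spleen CD8 (0.0054), 1.22 ± 0.23 for gut CD4 (0.016) and 1.36 ± 0.22 for gut CD8 cells (0.0108), by edgeR's quasi-likelihood test with Benjamini-Hochberg adjustment. Tox thus rose between 1.87-fold and 2.56-fold. The call ended without the spleen CD4 IgG library of batch 181212 (0.73, adjusted p = 0.0735) and, in the gut, without the anti-IL-2 library of that batch (adjusted p = 0.069 in CD4 and 0.0586 in CD8 cells). Batch 190306 on its own differed by -1.11, -1.21, -1.08 and -1.58 in log2 CPM, values of 1 library against 1 with no error.

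Tox2, a relative of TOX with the same type of DNA-binding domain, is known from follicular helper and exhausted cells. Its levels in spleen CD4 cells were 39.7, 30.1 and 124 CPM with IgG and 73.8, 96.6 and 45.4 CPM with anti-IL-2, by batch. In spleen CD8 cells they were 15.4, 12.1 and 39.8 and 29.3, 35.8 and 10.9 CPM. The pattern of Tox was therefore seen again, with the highest library of spleen CD4 cells labelled IgG and from batch 190306. Gut CD4 libraries held 15.2 and 50.8 CPM with IgG and 42, 43.9 and 10.6 with anti-IL-2, and gut CD8 libraries 7.75 and 32.5 and 32.2, 37.4 and 8.12. In batches 181201 and 181212 Tox2 rose by 1.28 ± 0.18 (spleen CD4, adjusted p = 0.00108), 1.24 ± 0.20 (spleen CD8, 0.00452), 1.53 ± 0.26 (gut CD4, 0.00682) and 2.20 ± 0.28 (gut CD8, 0.00215; edgeR). The change in gut CD8 cells, 4.59-fold, was the largest fold of any member in this comparison. The treatment difference of batch 190306 lay below that of the other batches by 6.64 to 18.4 times, the widest gap of the 10 genes in each population.

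Pdcd1, the gene of PD-1 itself, had smaller differences than Tox. In spleen CD4 cells it was at 319.9, 333 and 385 CPM with IgG and 333, 362 and 298 with anti-IL-2, and these groups overlap. In spleen CD8 cells it was at 448, 445 and 519 and 590.5, 560.3 and 474 CPM, with the 2 anti-IL-2 libraries of batches 181201 and 181212 above every IgG library. The gut CD4 libraries held 269 and 409 CPM with IgG and 373, 365 and 538 CPM with anti-IL-2. The gut CD8 libraries held 471 and 644 and 547, 518 and 675. In the gut the library labelled anti-IL-2 was the higher within each batch that holds both treatments, by 0.44 and 0.40 log2 CPM in CD4 cells and by 0.14 and 0.07 in CD8 cells, so Pdcd1 did not follow the reversal of Tox there. For batches 181201 and 181212 the change was 0.37 ± 0.06 in spleen CD8 (adjusted p = 0.00139) and 0.46 ± 0.08 in gut CD4 cells (0.00249). It did not pass in spleen CD4 (0.09 ± 0.06, 0.333) or gut CD8 cells (0.18 ± 0.08, 0.156; edgeR). The increases amounted to 1.29-fold and 1.37-fold.

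Lag3 encodes a receptor for MHC class II. Spleen CD4 libraries held 173, 174 and 288 CPM of Lag3 with IgG and 179.7, 221 and 166 with anti-IL-2. Spleen CD8 libraries held 348, 356 and 485 and 451, 486 and 365 CPM, so that in batch 190306 the IgG library was the higher in each spleen population. In the gut the values were 255 and 244 and 294, 320.1 and 252 CPM in CD4 cells, and 437 and 674 and 518, 638 and 527 CPM in CD8 cells. In batches 181201 and 181212 Lag3 rose in spleen CD8 (0.41 ± 0.07, adjusted p = 0.00266), gut CD4 (0.34 ± 0.09, 0.034) and gut CD8 cells (0.47 ± 0.09, 0.00684). It did not pass in spleen CD4 cells (0.20 ± 0.08, 0.0748; edgeR), but did without the spleen CD4 anti-IL-2 library of batch 181201 (0.29, adjusted p = 0.0476). The gut CD4 call was lost without either gut CD4 anti-IL-2 library of these batches (adjusted p = 0.11 and 0.114) and without the spleen CD8 anti-IL-2 library of batch 181212 (0.0506), and the gut CD8 call without the gut CD8 anti-IL-2 library of batch 181212 (0.0586).

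Havcr2 encodes TIM-3, a receptor of terminally differentiated effector and exhausted cells, and it changed in the other direction. In spleen CD4 cells the IgG libraries held 126, 147 and 44.5 CPM and the anti-IL-2 libraries 53.8, 62 and 98.2 CPM. Batches 181201 and 181212 gave nearly equal decreases, -1.23 and -1.24 in log2 CPM, and batch 190306 gave 1.14. Spleen CD8 libraries held 345, 362 and 180.1 CPM and 283, 279 and 264 CPM. In the gut the groups overlapped, with 165 and 128 CPM (IgG) and 141, 178 and 244 CPM (anti-IL-2) in CD4 cells, and 310.3 and 264 and 263, 322 and 318 in CD8 cells. By edgeR in batches 181201 and 181212, Havcr2 fell by 1.24 ± 0.08 on the log2 scale in spleen CD4 cells (adjusted p = 7.03e-07), that is 2.36-fold, and by 0.33 ± 0.08 in their CD8 counterparts (0.0134). For gut CD4 cells the change was 0.04 ± 0.10 (0.853). The decrease in spleen CD4 cells differed from the change in gut CD4 cells by 1.27 ± 0.13 (adjusted p = 0.000249, where 5.53% of all genes passed) and from that in spleen CD8 cells by -0.91 ± 0.11 (0.00211, where 1.12% passed). The spleen CD8 call was lost without the IgG library of batch 181201 (-0.26, adjusted p = 0.168) or the anti-IL-2 library of batch 181212 (-0.21, adjusted p = 0.205).

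Entpd1 encodes CD39, which breaks down extracellular ATP on the way to adenosine and marks regulatory and exhausted T cells. In spleen CD4 cells it was at 65.6, 63.2 and 32.2 CPM with IgG and 35.5, 29 and 63.7 CPM with anti-IL-2. Spleen CD8 cells held 78.2, 70.8 and 39 and 48, 44.2 and 62.6 CPM. In each spleen population the library of batch 190306 was the lowest with IgG and the highest with anti-IL-2. Gut CD4 cells held 109.8 and 45.8 CPM (IgG) and 77.8, 94.5 and 113 CPM (anti-IL-2), and gut CD8 cells 104 and 74 and 66.9, 89.95 and 131 CPM. In batches 181201 and 181212 Entpd1 fell by 0.99 ± 0.16 in spleen CD4 cells (adjusted p = 0.00247) and by 0.69 ± 0.16 in spleen CD8 cells (0.0206; edgeR). It did not pass in gut CD4 (-0.34 ± 0.19) or gut CD8 cells (-0.39 ± 0.19), and the difference between gut and spleen did not pass either (0.66 ± 0.25, adjusted p = 0.184 in CD4 cells). The spleen CD8 call did not hold without any of the 4 spleen CD8 libraries of these batches (adjusted p from 0.052 to 0.168). In gut CD8 cells Entpd1 passed without the gut CD8 anti-IL-2 library of batch 181212 (-0.69, adjusted p = 0.0336). Markers of regulatory T cells (7 genes, Entpd1 not among them) differed on average in the same direction as Entpd1 in each spleen pair. These markers are no measure of the number of regulatory T cells, and in spleen CD8 cells of batch 181201 most of them, 4 of 7, were higher. Their mean log2 difference was -0.47, -0.39 and 0.57 in spleen CD4 and -0.72, -0.85 and 0.59 in spleen CD8 cells by batch, with 2, 2 and 6 and 4, 2 and 6 of 7 higher. In gut CD4 and CD8 cells it was 0.26 and 0.13, and -0.72 and 1.15 (batches 181212, 190306), and the part of this list in the Entpd1 values was not tested.

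Tigit encodes a receptor for CD155 that competes with the activating receptor CD226, and its level ran from 198 to 326 CPM over all 22 libraries. Spleen CD4 cells held 313, 324 and 288 CPM with IgG and 269, 285 and 313 with anti-IL-2, and spleen CD8 cells 252, 259 and 207 and 253, 259 and 234. In gut CD4 cells it was at 321 and 214 and 265, 282 and 306 CPM, and in gut CD8 cells at 326 and 198 and 217, 255 and 242. The IgG library of batch 181212 was the highest of each gut population. In batches 181201 and 181212 Tigit fell by 0.43 ± 0.07 in gut CD8 cells (adjusted p = 0.00315) and by 0.20 ± 0.06 in spleen CD4 cells (0.0304; edgeR). DESeq2 did not call the spleen CD4 difference (adjusted p = 0.0906), and it was lost without any of 6 single libraries (adjusted p from 0.0534 to 0.143), 4 of them of spleen CD4 cells, beside the spleen CD8 anti-IL-2 library of batch 181201 and the gut CD4 anti-IL-2 library of batch 181212.

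Ctla4 encodes the inhibitory counterpart of CD28 for CD80 and CD86. Its levels in spleen CD4 cells were 302, 231 and 204 CPM with IgG and 343, 391 and 252 CPM with anti-IL-2. Gut CD4 cells held 352 and 522 and 536, 713 and 207 CPM, the widest spread of the 10 genes within a population in CPM. Spleen CD8 levels were 212, 120.4 and 101 and 181, 201 and 148 CPM, and gut CD8 levels 212 and 383 and 224, 344 and 181. Unlike Tox, Ctla4 was higher in the library labelled anti-IL-2 of batch 190306 in the spleen, by 0.30 log2 CPM in CD4 and 0.54 in CD8 cells, and lower in the gut, with -1.34 and -1.08. The changes in batches 181201 and 181212, 0.46 ± 0.36, 0.19 ± 0.37, 0.84 ± 0.47 and 0.44 ± 0.46 in the 4 populations, did not pass, with adjusted p from 0.32 to 0.827 (edgeR). Stress and immediate early genes, a list of 12 that are quickly induced, also had their highest spleen difference in batch 181212 and a lower gut level with anti-IL-2 in batch 190306. Their mean log2 difference was -0.71, 2.07 and -0.11 in spleen CD4 and -0.34, 1.91 and -0.39 in spleen CD8 cells (batches 181201, 181212, 190306), with 4, 11 and 6 and 6, 12 and 4 of 12 genes higher. In gut CD4 and CD8 cells it was 0.73 and -1.02, and 0.71 and -1.32 (batches 181212, 190306), with 5 and 2 and 5 and 0 of 12 genes higher. Most genes of the list were thus lower with anti-IL-2 in each gut pair, and their summed level was lower too, at 2904 to 5135 against 7119.7 to 7507 CPM in CD4 and 1615 to 3866 against 4807 to 5701 CPM in CD8 libraries. The part of this list in the Ctla4 values was not tested.

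Of the ligand genes, Cd274 held 122, 118 and 111 CPM (IgG) and 134, 135 and 88.2 CPM (anti-IL-2) in spleen CD4 cells, and 64.3, 71.5 and 51.9 and 72.8, 69.3 and 50.1 in spleen CD8 cells. In the gut it was at 137 and 176 and 150.5, 162 and 112 CPM in CD4 cells, and at 77.8 and 98.1 and 73.3, 83.7 and 62.9 CPM in CD8 cells. The groups overlapped in each population. Its log2 change in batches 181201 and 181212 lay between 0.04 ± 0.09 in gut CD8 and 0.22 ± 0.09 in gut CD4 cells, with adjusted p from 0.125 to 0.833. In batch 190306 the library labelled anti-IL-2 held less Cd274, with -0.33, -0.05, -0.65 and -0.64 log2 CPM in spleen CD4, spleen CD8, gut CD4 and gut CD8 cells. Cd80 RNA ranged from 6.15 to 47.3 CPM, and its changes ran from -0.25 ± 0.13 in spleen CD4 to 0.52 ± 0.19 in gut CD4 cells (adjusted p = 0.0959, the smallest of the 4). The gut CD4 difference passed without either gut CD8 anti-IL-2 library of these batches (adjusted p = 0.022 and 0.0219). Batch 190306 had the lowest Cd80 of each group, whichever the treatment.

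**Figure D2:**
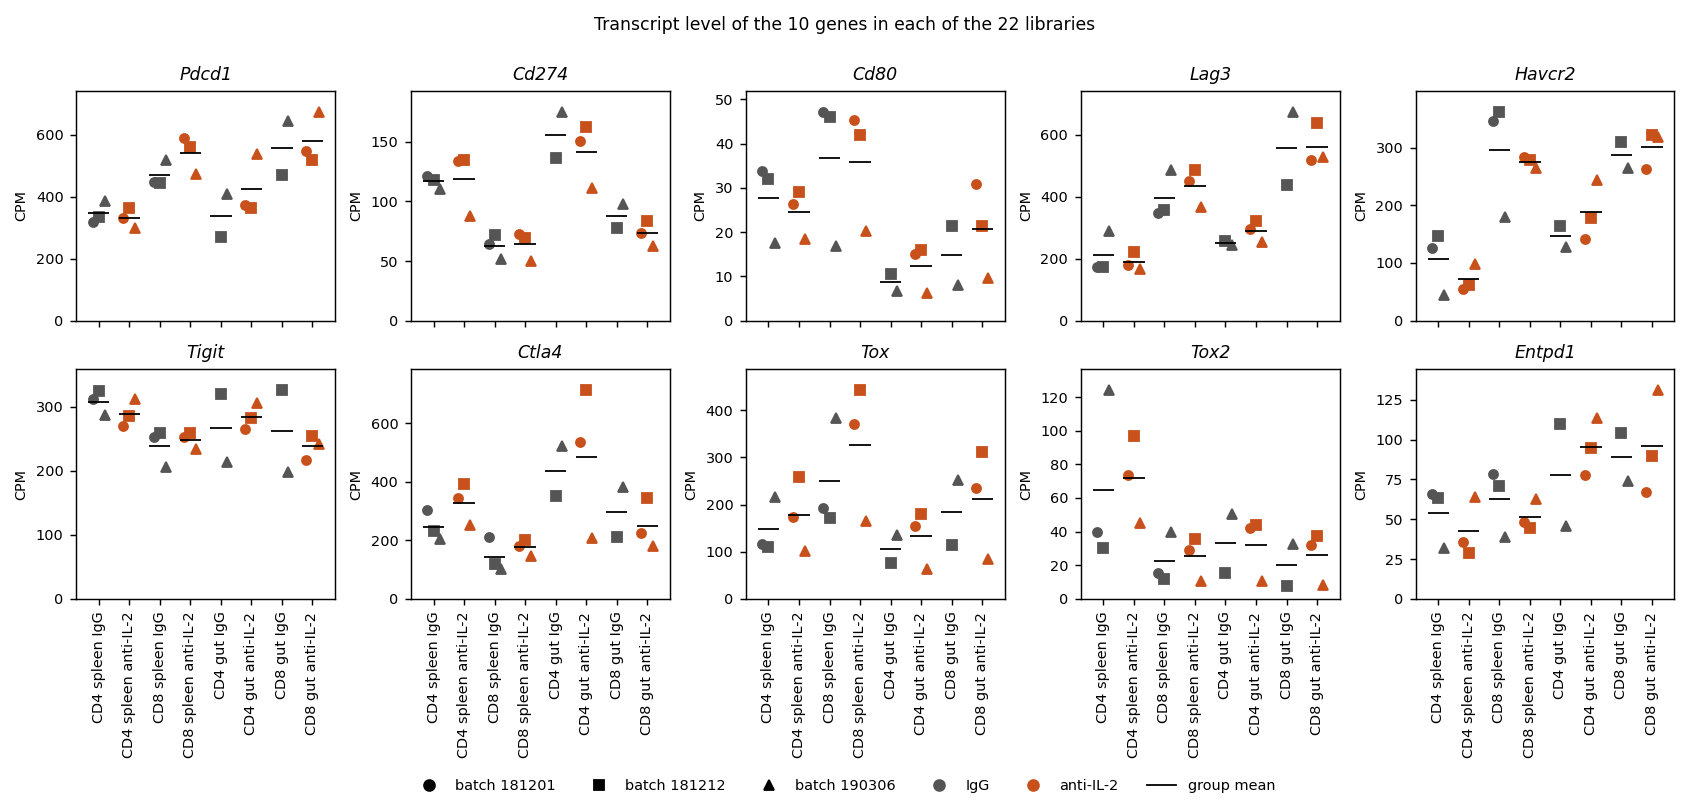
Level of each gene in CPM (vertical axes, each from 0) in the 22 libraries by group (horizontal axis), with points marked by batch, colours for IgG and anti-IL-2 and a bar at the group mean. Triangles of batch 190306 stand highest among IgG and lowest among anti-IL-2 libraries for Tox, and lowest in all 8 groups for Cd80, while Tigit stays between 198 and 326 CPM.

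The treatment difference of batch 190306 had been seen to depart from that of the other batches before the batch was given its own terms. The values that follow describe that departure and are no independent test of it, and each group of batch 190306 is 1 library, so they hold no spread of that batch. The difference of differences called 8 of the 10 in spleen CD4 cells (24.3% of all genes), 6 for spleen CD8 (16.1%), 6 for gut CD4 (15%) and 6 for gut CD8 cells (13%). Tox, Tox2 and Entpd1 were called in all 4 populations. For Entpd1 the difference was 1.97 ± 0.27, 1.37 ± 0.27, 1.64 ± 0.29 and 1.22 ± 0.28 in spleen CD4, spleen CD8, gut CD4 and gut CD8 cells. Havcr2 was called in 3, with 2.38 ± 0.14 in spleen CD4, 0.88 ± 0.14 in spleen CD8 and 0.89 ± 0.15 in gut CD4 cells, while gut CD8 cells gave 0.27 ± 0.15. Lag3 was called in spleen CD4 (-0.99 ± 0.13), spleen CD8 (-0.82 ± 0.13) and gut CD8 cells (-0.83 ± 0.14). Pdcd1 was called in the spleen alone, at -0.46 ± 0.10 in CD4 and -0.50 ± 0.10 in CD8 cells, against -0.06 ± 0.11 and -0.11 ± 0.11 in the gut. Cd274 was called in spleen CD4 and both gut populations (-0.49 ± 0.12, -0.87 ± 0.13 and -0.68 ± 0.14), and Tigit in the same 3 in the other direction (0.32 ± 0.10, 0.71 ± 0.11 and 0.72 ± 0.11). The spleen CD4 call of Tigit, at adjusted p = 0.0377, was lost by DESeq2 (0.129), with other scaling factors (0.0517) and without any of 7 single libraries (0.0528 to 0.0858), the anti-IL-2 libraries of spleen CD4, spleen CD8 and gut CD4 cells of batches 181201 and 181212 and the spleen CD4 IgG library of batch 181201. Ctla4 in gut CD4 cells (-2.18 ± 0.70, 0.11) passed by DESeq2 (0.0235), by limma voom (0.0102) and without either spleen CD8 IgG library of batches 181201 and 181212 (0.0436 and 0.0435).

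**Figure D3:**
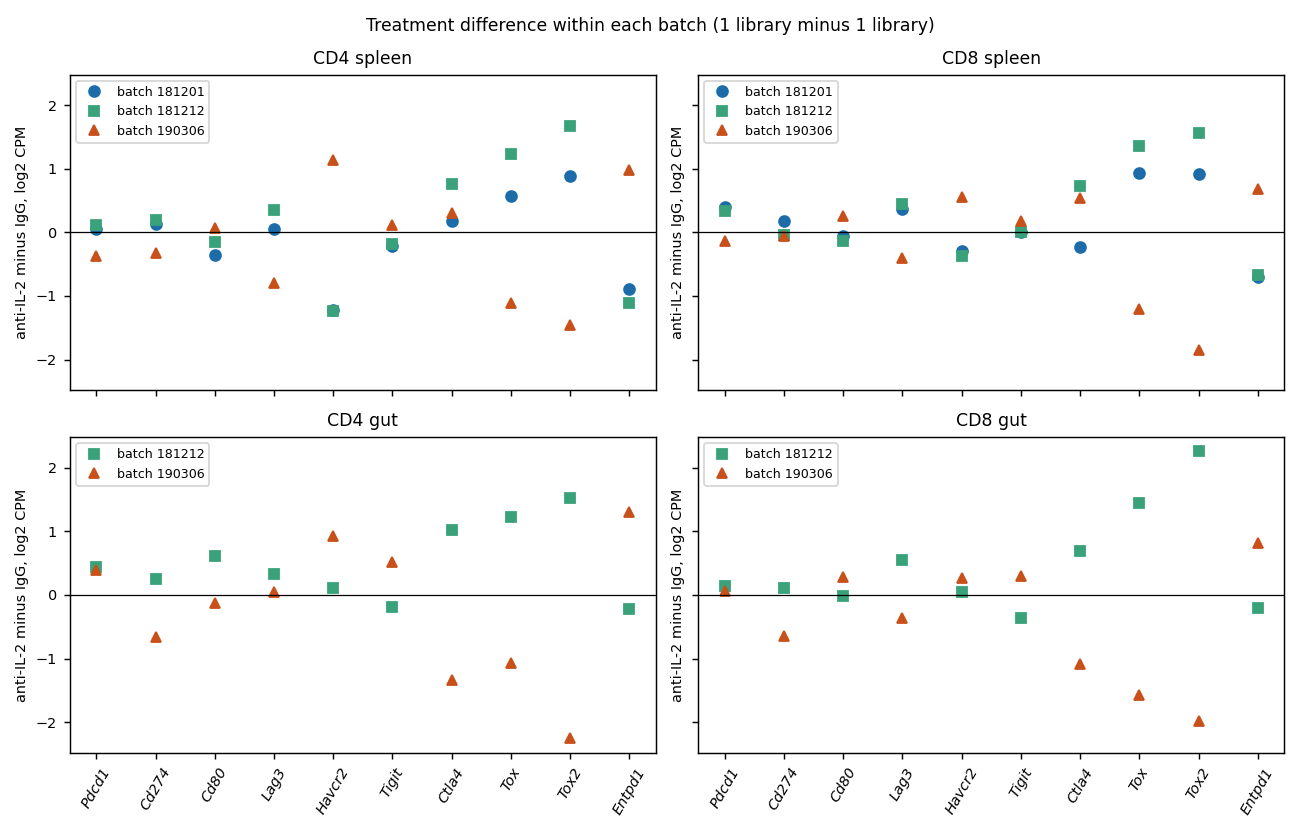
Anti-IL-2 minus IgG in log2 CPM (vertical axis) within each batch for the 10 genes (horizontal axis) in the 4 populations, each point 1 library minus 1 library. For Tox and Tox2 the points of batches 181201 and 181212 lie above 0 and those of batch 190306 below 0 in every panel, and for Entpd1 the reverse.

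Whether the change of a member differed between populations was tested within batches 181201 and 181212. Between gut and spleen CD4 cells 2 members were called, Havcr2 (above) and Pdcd1, whose change was larger in the gut by 0.37 ± 0.10 (adjusted p = 0.0436). Between gut and spleen CD8 cells 1 was called beside 2.55% of all genes, Tigit, with -0.43 ± 0.10 (0.0335). Between CD4 and CD8 cells 1 was called in the spleen (Havcr2) and 0 in the gut, where 0.0779% of genes passed, 2 members had an unadjusted p under 0.05 and DESeq2 and limma voom called 0. Tox and Tox2 did not differ detectably between populations in any of the 4 tests, with differences from -0.24 ± 0.24 to 0.32 ± 0.28 for Tox and from -0.67 ± 0.38 to 0.96 ± 0.35 for Tox2. The Pdcd1 call was lost without any of 8 single libraries (adjusted p from 0.0577 to 0.248), and without batch as a term (0.0792), as were those of Tigit (0.103) and of Havcr2 between the cell types (0.0632). The 8 are the 4 spleen CD8 libraries and the 2 gut CD4 anti-IL-2 libraries of batches 181201 and 181212, the spleen CD4 anti-IL-2 library of batch 181201 and the spleen CD4 IgG library of batch 181212. That of Tigit was lost without any of 7 (from 0.0599 to 0.188), which are the spleen CD8 libraries and the gut CD4 anti-IL-2 libraries of those batches and the gut CD8 anti-IL-2 library of batch 181201. Cd80, at 0.77 ± 0.23 between gut and spleen CD4 cells (0.076), passed without either of those gut CD8 anti-IL-2 libraries of batches 181201 and 181212 (0.0151 and 0.0152) and without the spleen CD4 anti-IL-2 library of batch 181212 (0.0462).

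The tissues were compared next. Gut cells of both types held more Cd274, Ctla4, Lag3 and Entpd1 RNA and less Cd80 and Tox RNA than spleen cells of the same type, and gut CD4 cells also held more Havcr2 and less Tox2. Pdcd1 and Tigit did not pass in either cell type. Gut and spleen libraries were compared within each combination of batch and treatment label, which leaves 5 pairs per cell type. A treatment or batch difference shared by the tissues and cell types does not enter. One that differs between tissues does, and Ctla4 in CD4 cells of batch 190306 gave 1.35 with IgG and -0.28 with anti-IL-2. By edgeR 8 of the 10 members were called in CD4 cells (5 higher in the gut, 3 lower) and 6 in CD8 cells (4 higher, 2 lower), where 49.3% and 47.8% of all genes were called. The median of the 10 members was 0.24 in CD4 and 0.16 in CD8 cells, and that of all genes was 0.01 and -0.00043. Without the pairing by batch and label, Cd274 and Tox lost their calls in CD4 (0.0839 and 0.444) and CD8 cells (0.087 and 0.316), Ctla4 and Tox2 in CD4 cells (0.0605 and 0.123) and Entpd1 in CD8 cells (adjusted p = 0.0519). Within the IgG label, by the first model fitted to all 22 libraries, 1 and 2 members were called (16.3% and 18.7% of all genes). Within the anti-IL-2 label 2 and 1 were called (19.4% and 17.8%).

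Among the ligands, Cd274 stood at 118 ± 17.3 CPM (mean ± SD, n = 6) in spleen CD4 and 147 ± 24.6 (n = 5) in gut CD4 cells. In spleen CD8 cells it was at 63.3 ± 9.98 (n = 6) and in gut CD8 cells at 79.1 ± 13.1 CPM (n = 5). It rose in the gut by 0.33 ± 0.09 in CD4 (adjusted p = 0.00719) and 0.33 ± 0.09 in CD8 cells (0.00835), and was higher in 5 of 5 and 5 of 5 pairs. Without batch 190306 the CD8 difference was 0.14 and did not pass (adjusted p = 0.11). Cd80 ran the other way, with 26.2 ± 6.83 CPM in spleen CD4 and 10.9 ± 4.56 CPM in gut CD4 cells, groups that did not overlap. In CD8 cells it was at 36.3 ± 13.8 and 18.3 ± 9.46 CPM. It fell in the gut by 1.24 ± 0.15 in CD4 (adjusted p = 4.19e-06) and by 0.94 ± 0.14 in CD8 cells (4.6e-05), 2.37-fold and 1.91-fold, and was lower in 5 of 5 pairs of each type. Cd274 and Cd80 thus differed in opposite directions between the tissues. The gene of PD-L2, the other ligand of PD-1, is described with its family below and had the direction of Cd274.

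Among the receptors, Ctla4 was at 287 ± 71.4 CPM in spleen CD4 and 466 ± 193 in gut CD4 cells, and at 161 ± 44.7 and 269 ± 88.8 in CD8 cells. It rose in the gut by 0.69 ± 0.22 in CD4 (adjusted p = 0.0188) and 0.79 ± 0.23 in CD8 cells (0.0101). Its differences between pairs were uneven, from -0.28 to 1.35 in CD4 and from 0.29 to 1.91 in CD8 cells. The CD4 call was lost without any of 3 libraries, the gut CD4 anti-IL-2 library of batch 181212 and the spleen and gut CD4 IgG libraries of batch 190306 (adjusted p from 0.0524 to 0.0632). Lag3 rose by 0.43 ± 0.09 in CD4 (0.00111) and 0.39 ± 0.09 in CD8 cells (0.00248), from 200.2 ± 47.1 to 273 ± 32.6 CPM and from 415 ± 65.9 to 559 ± 96.4 CPM. It was higher in 4 of 5 CD4 pairs and 5 of 5 CD8 pairs. Havcr2 was at 88.6 ± 41.9 CPM in spleen CD4 and 171 ± 45.3 in gut CD4 cells, an increase of 1.12 ± 0.19 (0.000233). Its pairs ran from 0.17 to 1.52. The first model gave 0.46 within the IgG label (adjusted p = 0.484) and 1.39 ± 0.37 within the anti-IL-2 label (0.0177). In CD8 cells, at 286 ± 65 and 295 ± 29.4 CPM, the change was 0.17 ± 0.19 (0.469). The difference between the cell types, 0.95 ± 0.26, did not pass by edgeR (adjusted p = 0.0532) and passed by DESeq2 (0.0105), by limma voom (0.027), and without any of the spleen CD4 IgG library of batch 181212, the gut CD4 IgG library of batch 181212 or the gut CD8 IgG library of batch 190306 (0.00961 to 0.0423). The difference was 0.16 ± 0.12 and 0.14 ± 0.12 for Pdcd1, and -0.11 ± 0.07 and 0.02 ± 0.07 for Tigit, in CD4 and CD8 cells.

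Entpd1 rose in the gut by 0.99 ± 0.13 in CD4 (adjusted p = 1.4e-05) and 0.82 ± 0.13 in CD8 cells (8.68e-05), from 48.2 ± 17.6 to 88.2 ± 27.6 and from 57.1 ± 15.7 to 93.2 ± 25.6 CPM. It was higher in 5 of 5 pairs of each type. Tox fell by 0.51 ± 0.08 in CD4 (adjusted p = 2.46e-05) and by 0.65 ± 0.07 in CD8 cells (1.83e-06), and was lower in 5 of 5 pairs of each type. Its groups overlap, at 163 ± 64.5 and 123 ± 50.1 CPM in CD4 and 288 ± 124 and 199.8 ± 96.6 in CD8 cells, each spread over batches and labels. Tox2 fell by 1.25 ± 0.15 in CD4 cells (4.06e-06), from 68.3 ± 36.8 to 32.5 ± 18.3 CPM, with 5 of 5 pairs lower. In CD8 cells, at 23.9 ± 12.7 and 23.6 ± 14.5 CPM, it did not pass (-0.20 ± 0.15, adjusted p = 0.297). The difference of Tox2 between CD4 and CD8 cells was -1.06 ± 0.21 (adjusted p = 0.00975), and Tox2 was the only member among the 4.65% of genes called in that test by edgeR. It did not pass without the pairing (adjusted p = 0.861).

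Other genes moved with tissue too, and their part in these differences was not tested. Over all genes 49.3% and 47.8% were called in either direction between tissues in CD4 and CD8 cells. Stress and immediate early genes summed to 703 to 1796 CPM in spleen CD4, 2904 to 7507 in gut CD4, 421 to 1027 in spleen CD8 and 1615 to 5701 in gut CD8 libraries, and 9 and 10 of 12 were higher in the gut in CD4 and CD8 cells. Markers of regulatory T cells, which display CTLA-4, TIGIT and CD39, summed to 558 to 816 CPM in spleen CD4 and 732 to 1185 in gut CD4 cells, with 5 of 7 higher. Foxp3, the defining gene of that list, was at 31.9 to 71.9 and 54.3 to 164 CPM there, and at 1.82 to 31 and 4.02 to 43.2 CPM in spleen and gut CD8 cells, where 5 of 7 markers were higher too and the sums were 336 to 561 and 385 to 715. Nrp1 made up a large part of these sums, at medians of 283 and 240 CPM in spleen CD4 and CD8 cells and 225 and 224 CPM in the gut. The sums are therefore no measure of the number of regulatory T cells. Markers of epithelium summed to at most 11.3 CPM in the spleen and to 17.99 to 97.9 CPM in the gut, mostly Cdh1, with 5 of 6 higher in each cell type and Krt8 and Krt20 at 0 in 11 of 12 spleen libraries. Markers of macrophages and dendritic cells, which display CD80 and PD-L1, summed to 76.6 to 174 and 141 to 242 CPM in spleen and gut CD4 cells and to 505 to 705 and 578 to 744 in CD8 cells. Of the 7 tested, 2 were higher and 3 lower in gut CD4 cells, and 1 was lower in gut CD8 cells. Itgax and Itgam, integrin genes that activated T cells also express, made up much of that sum, Csf1r reached 48.2 CPM in spleen CD4 cells, and Siglech was at 0 in 19 of 22 libraries.

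CD4 and CD8 cells differed in most members. CD8 cells held more Pdcd1, Lag3, Havcr2, Tox and Cd80 RNA, and CD4 cells more Cd274, Ctla4 and Tox2 RNA, in the spleen and in the gut. Entpd1 passed in neither tissue. Compared within batch and treatment label, 9 of the 10 members were called in the spleen (4 higher in CD4, 5 lower; 58.1% of all genes) and 8 in the gut (3 higher, 5 lower; 46%). The medians of the 10 were -0.33 and -0.33, beside 0.01 and -0.01 over all genes. Without the pairing, Cd80 and Tox lost their calls in the spleen (0.279 and 0.0707) and in the gut (0.154 and 0.202), and Tox2 in the gut (adjusted p = 0.592). The first model gave 4 calls in the spleen and 3 in the gut within the IgG label (28% and 9.32% of all genes). Within the anti-IL-2 label it gave 4 and 4 (31.4% and 22.6%).

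Pdcd1 was lower in CD4 than in CD8 cells by -0.57 ± 0.11 in the spleen (adjusted p = 0.000284) and -0.56 ± 0.12 in the gut (0.00121). Its order was 571 ± 86 CPM for gut CD8, 506 ± 60.6 for spleen CD8, 391 ± 97.3 for gut CD4 and 339 ± 31.1 for spleen CD4 cells (mean ± SD, n = 5, 6, 5 and 6). Neighbours in that order overlapped, and spleen CD4 libraries (298 to 385) did not overlap spleen CD8 libraries (445 to 590.5). Its ligand gene Cd274 had the reverse order of cell types, higher in CD4 cells by 0.89 ± 0.09 (2.18e-07) and 0.89 ± 0.10 (1.21e-06), in 6 of 6 spleen pairs and 5 of 5 gut pairs. Within each tissue the CD4 and CD8 libraries did not overlap in Cd274, at 88.2 to 135 against 50.1 to 72.8 CPM in the spleen and 112 to 176 against 62.9 to 98.1 in the gut. The receptor of the axis and its ligand thus stood higher in different cell types, by 1.49-fold in CD8 cells for Pdcd1 and 1.86-fold in CD4 cells for Cd274 in the spleen.

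Lag3 separated the cell types without overlap, since the lowest CD8 library of either tissue (348 CPM) exceeded the highest CD4 library (320.1 CPM). The differences were -1.06 ± 0.09 in the spleen (adjusted p = 2.88e-08) and -1.01 ± 0.10 in the gut (2.59e-07). Havcr2 differed by -1.76 ± 0.18 in the spleen (9.28e-07), 3.39-fold lower in CD4 cells, and by -0.81 ± 0.19 in the gut (0.00296), where the CD4 libraries (128 to 244 CPM) still lay below the CD8 libraries (263 to 322). Ctla4 was higher in CD4 cells by 0.84 ± 0.21 in the spleen (0.00307) and 0.74 ± 0.23 in the gut (0.0158). Its gut call was lost without the gut CD8 anti-IL-2 library of batch 181201 (0.0528) or the gut CD4 IgG library of batch 190306 (0.0606). Tigit was higher in spleen CD4 cells by 0.30 ± 0.06 (0.0007) and did not pass in the gut (0.17 ± 0.07, 0.0583), where it passed by DESeq2 (0.0349), with relative log expression factors (0.0421), and without any of 5 libraries, the spleen CD8 anti-IL-2 libraries of batches 181201 and 190306, the gut CD8 IgG library of batch 181212 and the spleen and gut CD4 IgG libraries of batch 190306 (0.00726 to 0.0434).

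Tox and Tox2 stood on opposite sides. Tox was lower in CD4 cells, by -0.80 ± 0.07 in the spleen (adjusted p = 3.1e-08) and -0.66 ± 0.08 in the gut (2.04e-06). Tox2 was higher in CD4 cells by 1.55 ± 0.14 in the spleen (9.89e-08), 2.92-fold, and by 0.49 ± 0.15 in the gut (0.0155). Cd80 was lower in CD4 cells, by -0.40 ± 0.13 in the spleen (0.0127) and -0.70 ± 0.15 in the gut (0.00127). Entpd1 gave -0.27 ± 0.12 in the spleen (0.0689) and -0.10 ± 0.13 in the gut (0.572). In the spleen it passed by DESeq2 (0.0456) and without any of the spleen CD4 IgG library of batch 181212, the gut CD4 anti-IL-2 library of batch 181212 or the gut CD4 IgG library of batch 190306 (0.0339 to 0.0465). Regulatory T cell markers were higher in CD4 cells too, 5 of 7 in each tissue, where 58.1% (spleen) and 46% (gut) of all genes were called in either direction. Foxp3 was at the levels given above, and the part of these markers in the higher Ctla4 was not tested.

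**Figure D4:**
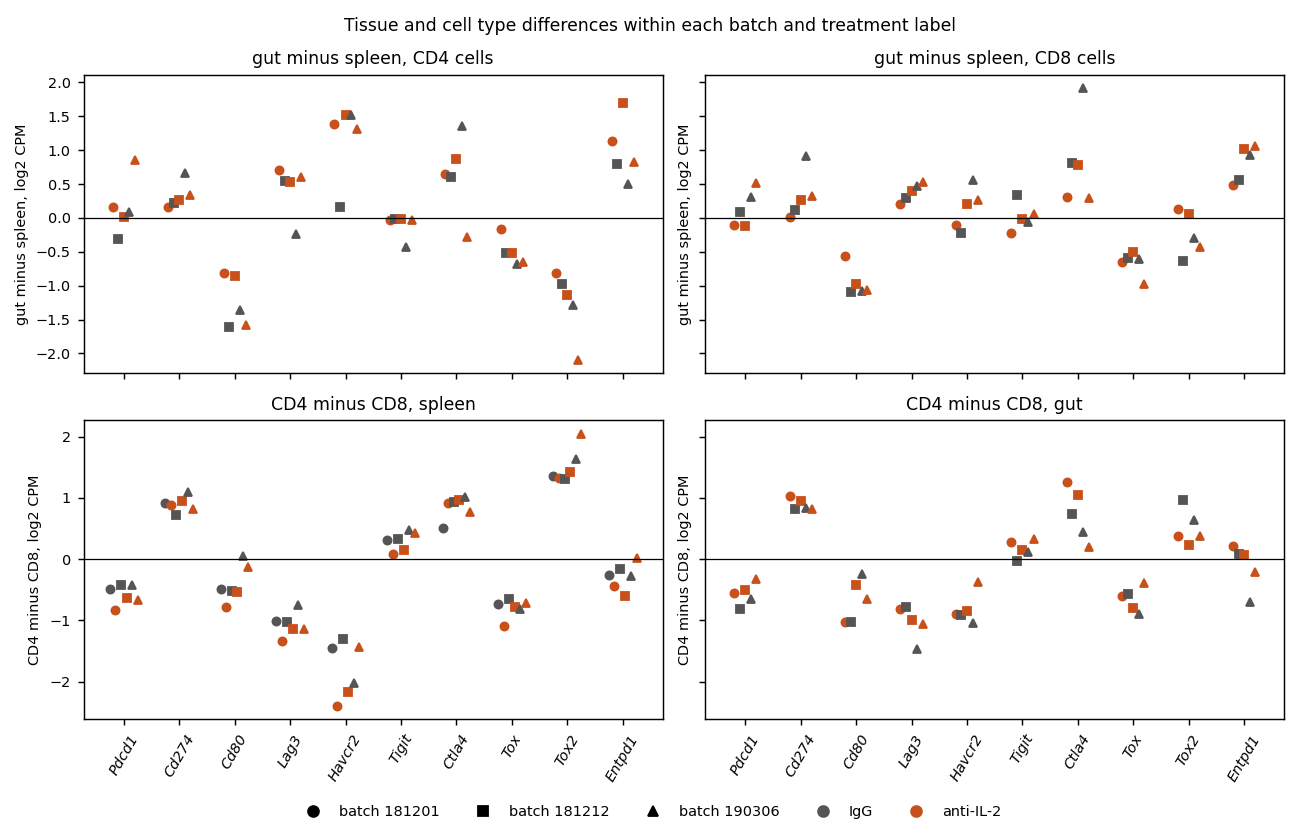
Gut minus spleen (upper panels) and CD4 minus CD8 (lower panels) in log2 CPM (vertical axes) for the 10 genes (horizontal axis), each point 1 pair of libraries with the same batch (marker) and treatment label (colour). All points of Cd80 and Tox lie below 0 in the upper panels, and in the lower panels all points of Cd274 and Ctla4 lie above 0 and all points of Pdcd1, Lag3, Havcr2 and Tox below it.

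Across the 22 libraries some members varied together. Pearson's r of log2 CPM was 0.85 between Pdcd1 and Lag3, 0.65 between Pdcd1 and Havcr2 and 0.85 between Cd274 and Ctla4. Pdcd1 and its ligand gene Cd274 gave -0.61, Havcr2 and Tox2 -0.79, and Entpd1 and Tox2 -0.76. Tox correlated weakly with Pdcd1, at 0.39. These values describe libraries that share cell type, tissue, batch and depth, and they were not tested. Among 9594 genes whose log2 CPM averaged 2 or more, those most like Pdcd1 over the 22 libraries were Irf8, a transcription factor gene (r = 0.903), Frmd4a (r = 0.879) and Cox17 (r = 0.865). For Lag3 they were Ret, a receptor tyrosine kinase gene (r = 0.962), Baiap3 (r = 0.955) and Saraf (r = 0.944). For Tox they were Irf2, an interferon regulatory factor gene (r = 0.930), Gfpt1, of the hexosamine pathway (r = 0.925), and Lclat1 (r = 0.924).

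The other genes around the axis were described from lists. Among transcription factors of activated and exhausted T cells (18 tested), batches 181201 and 181212 gave 5 higher and 4 lower in CD4 and 4 higher and 3 lower in CD8 cells of the spleen, and 6 higher and 0 lower and 4 higher and 0 lower in those of the gut. The medians were -0.02, 0.14, 0.36 and 0.20. Over all genes 21%, 12.4%, 12.1% and 11% were called in these populations. Tcf7, the gene of TCF-1, which marks the self-renewing subset of exhausted cells, rose with Tox in each population, by 1.36 ± 0.12, 2.30 ± 0.13, 1.02 ± 0.15 and 2.24 ± 0.17. Id3, which blocks E proteins, rose by 1.34 ± 0.11 in spleen CD4 and 2.49 ± 0.16 in spleen CD8 cells, and Bach2, a repressor of effector genes, by 1.61 ± 0.12 in spleen CD8 cells. Eomes and Tbx21 (T-bet), T-box factors of effector and exhausted cells that were named after their values were seen, moved apart, with Eomes at 3.18 ± 0.50 and Tbx21 at -0.75 ± 0.10 in spleen CD4 cells, and at 1.51 ± 0.34 and -0.45 ± 0.10 in the CD8 cells of the spleen. Nr4a3, induced by T cell receptor signals, rose by 0.92 ± 0.13 in gut CD4 and 1.31 ± 0.14 in gut CD8 cells. Between tissues this list held 9 higher and 4 lower in gut CD4 cells and 7 higher and 3 lower in gut CD8 cells (all genes 49.3% and 47.8%), with Nr4a2 at 2.63 ± 0.26 and 1.65 ± 0.24 and Nr4a3 at 2.32 ± 0.24 and 1.63 ± 0.23, and with medians of 0.22 and 0.03. Maf was higher in CD4 than in CD8 cells by 2.95 ± 0.09 in the spleen and 3.23 ± 0.10 in the gut, where the list gave 10 higher and 4 lower and 11 higher and 3 lower (all genes 58.1% and 46%).

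In the B7 and CD28 family (8 tested), treatment in the same batches gave 3 higher and 2 lower, 3 higher and 0 lower, 2 higher and 1 lower and 1 higher and 2 lower in spleen CD4, spleen CD8, gut CD4 and gut CD8 cells (all genes 21%, 12.4%, 12.1% and 11%), with medians of 0.12, 0.17, 0.12 and -0.13. Btla, an inhibitory receptor gene, rose by 0.92 ± 0.11, 0.93 ± 0.12 and 1.07 ± 0.16 in the first 3, and Tnfrsf14, the gene of its ligand HVEM, rose in all 4, by 0.74 ± 0.09, 0.46 ± 0.09, 0.71 ± 0.12 and 0.69 ± 0.12. Pdcd1lg2, which encodes PD-L2, the other ligand of PD-1, ranged over 14.2 to 73.5 CPM and did not pass for treatment in these batches. It was higher in the gut by 0.65 ± 0.13 in CD4 and 0.71 ± 0.14 in CD8 cells, and higher in CD4 cells by 1.13 ± 0.13 in the spleen and 1.07 ± 0.14 in the gut, the same directions as Cd274. Cd86, the relative of Cd80, rose in the gut by 0.98 ± 0.15 in CD4 and 0.45 ± 0.14 in CD8 cells, where Cd80 fell. Btla fell in the gut (-1.91 ± 0.11 in CD4 and -1.29 ± 0.11 in CD8 cells). Between CD4 and CD8 cells 7 of 8 genes were higher in CD4 cells in each tissue, where 58.1% (spleen) and 46% (gut) of all genes were called in either direction, among them Icos (1.58 ± 0.11 in the spleen), Icosl (1.61 ± 0.14 in the gut) and Cd28 (0.84 ± 0.06 in the gut).

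Of 10 other inhibitory receptor genes tested, treatment gave 1 higher and 2 lower, 1 higher and 2 lower, 2 higher and 1 lower and 1 higher and 1 lower in the 4 populations (all genes 21%, 12.4%, 12.1% and 11%), with medians from -0.18 to 0.45. Cd200 rose in each, by 1.12 ± 0.10, 1.33 ± 0.11, 1.19 ± 0.15 and 1.16 ± 0.15, while Cd200r1, the gene of its receptor, was at -1.15 ± 0.11 in spleen CD4 cells. Cd244, which encodes the receptor 2B4, was at -1.11 ± 0.16 in spleen CD8 cells, a call in the direction of Havcr2. In the gut, 7 of 10 were higher in CD4 cells and 5 in CD8 cells (all genes, in either direction, 49.3% and 47.8%), among them Cd96, a receptor that shares CD155 with TIGIT, by 0.71 ± 0.05 and 0.60 ± 0.05, and Cd160, a receptor for HVEM, by 1.89 ± 0.13 and 1.06 ± 0.12. Cd160 was lower in CD4 than in CD8 cells of the spleen (-2.23 ± 0.12), and Cd5 was higher in CD4 cells of the gut by 1.25 ± 0.07.

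Among 8 tested ligand genes of the inhibitory receptors, Lgals3, whose product binds LAG-3, fell in each population of these batches (-1.72 ± 0.11, -0.65 ± 0.10, -1.53 ± 0.13 and -0.98 ± 0.13). The list gave 1 higher and 1 lower, 0 higher and 2 lower, 0 higher and 3 lower and 3 higher and 2 lower (all genes 21%, 12.4%, 12.1% and 11%), with medians of -0.10, -0.01, 0.17 and 1.27. In this list Nectin2, Nectin3, H2-Aa and H2-Ab1 were sparse, with median levels of 0.26, 0.06, 1.68 and 2.63 CPM. Pvr, which encodes CD155, the ligand of TIGIT, fell in spleen CD8 (-0.42 ± 0.08), gut CD4 (-0.37 ± 0.09) and gut CD8 cells (-0.60 ± 0.10). Lgals9, whose product binds TIM-3, fell in gut CD4 cells (-0.52 ± 0.08). H2-Aa, an MHC class II gene of antigen-presenting cells and a ligand of LAG-3, rose by 2.62 ± 0.56 in spleen CD4 and 2.60 ± 0.71 in gut CD8 cells. Its RNA was sparse, from 0.0887 to 10.7 CPM over the 22 libraries, so these are changes at low counts. The list of macrophage and dendritic cell markers differed in spleen CD4 cells by 1.21, 0.23 and -0.81 on average in batches 181201, 181212 and 190306, with 6, 7 and 6 of 11 higher. In gut CD8 cells it differed by 1.08 and -0.19 in batches 181212 and 190306, with 9 and 3 of 11 higher, and B cell markers by 1.1 and 0.12, with 5 and 3 of 5 higher. The part of either list in the H2-Aa values was not tested. In the adenosine pathway (6 tested), Dpp4, which encodes CD26, and Nt5e, which encodes CD73, the enzyme that acts after CD39, rose in spleen CD4 (0.75 ± 0.07 and 0.77 ± 0.08) and spleen CD8 cells (0.98 ± 0.07 and 1.08 ± 0.09), where Entpd1 fell. Cd38, another ectoenzyme gene, rose by 0.54 ± 0.11 in gut CD4 and 0.73 ± 0.11 in gut CD8 cells and was higher in the gut than in the spleen by 1.63 ± 0.20 and 1.38 ± 0.19 in CD4 and CD8 cells. P2rx7, an ATP receptor gene, was higher in the gut by 2.24 ± 0.35 and 3.43 ± 0.38. The list gave 2 higher and 1 lower, 4 higher and 0 lower, 2 higher and 1 lower and 3 higher and 0 lower for treatment (all genes 21%, 12.4%, 12.1% and 11%), with medians of 0.35, 0.77, 0.10 and 0.42. Between tissues 5 and 4 of 6 were higher in gut CD4 and CD8 cells (all genes, in either direction, 49.3% and 47.8%).

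A list around interferon signalling and PD-L1 held 11 genes, not all of which act in its induction. Of these, treatment gave 3 higher and 1 lower, 3 higher and 1 lower, 1 higher and 1 lower and 1 higher and 1 lower (all genes 21%, 12.4%, 12.1% and 11%), with medians of 0.17, 0.23, 0.08 and -0.01. Cd274 was not called. Ifngr1, a chain of the interferon-gamma receptor, fell in each population (-0.76 ± 0.07, -0.25 ± 0.07, -0.35 ± 0.09 and -0.53 ± 0.09). Stat3 was higher in the gut, by 0.44 ± 0.06 and 0.47 ± 0.06, and Jak2 was higher in CD4 cells, by 0.75 ± 0.06 in the spleen and 0.92 ± 0.06 in the gut, as Cd274 was. Of 11 genes of PD-1 and T cell receptor signalling, treatment gave 2 higher and 2 lower, 1 higher and 0 lower, 0 higher and 0 lower and 1 higher and 0 lower (all genes 21%, 12.4%, 12.1% and 11%), with medians of 0.07, 0.09, 0.05 and 0.03. Fyn, a Src family kinase gene, rose by 0.53 ± 0.06 in spleen CD4, 0.75 ± 0.06 in spleen CD8 and 0.29 ± 0.07 in gut CD8 cells. In the gut, 7 of these 11 were higher in CD4 and 8 in CD8 cells (all genes, in either direction, 49.3% and 47.8%), among them the adaptor genes Lat (0.64 ± 0.06 and 0.64 ± 0.06) and Lcp2 (0.43 ± 0.04 and 0.48 ± 0.04). Every value of these lists comes from edgeR with p adjusted over all 12841 genes, and those for treatment hold for batches 181201 and 181212 only.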

How the data were processed

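Reads of 22 poly(A) RNA libraries made with a stranded kit were counted per gene by the authors, and the deposited table holds raw counts. Per the submitters' processing notes, TopHat2 and HTSeq 0.9.1 were used with build mm10. The annotation, strand setting and filters are not given in the sources used here. Of the 24091 names, 23509 (97.6%) matched GENCODE M21, which gave coordinates and exon lengths.

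Counts were scaled with TMM factors (0.929 to 1.07) and tested with edgeR 4.0.16 (quasi-likelihood, robust) in R 4.3.3 on the 12841 genes kept by filterByExpr. P-values were adjusted over all of them (Benjamini-Hochberg) and called under 0.05. A first model held 8 groups and batch, a second gave batch 190306 its own group terms, and another held 4 populations with batch by treatment as blocks for tissue and cell type. The batch is a replicate block named in the labels, so libraries of a batch were paired by label. SE was the absolute log2 fold change over the square root of F, and log2 CPM used a prior count of 2. On simulated counts with known changes all 3 models were tested, with an outcome that is not given here. Those counts had the same spread for all genes and no reversal between batches, so they do not show how the models handle such a reversal.

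The members and gene lists, and the separation of batch 190306, were chosen with earlier results of these data known. Named genes were the members, up to 2 genes with the smallest p per list and comparison, genes whose role bears on a member, and the 3 genes most correlated with Pdcd1, Lag3 and Tox. A gene that this rule would name is not reported here. Alternatives were DESeq2 1.42.0, limma 3.58.1 voom, other scaling factors, no filter, no block, only the libraries of the 2 earlier batches and each library left out. Comparisons within each treatment label were taken from the first model, which is fitted to all 22 libraries. Leaving out batch 190306 from the first and the population models was chosen after seeing the data. Markers of B cells summed to at most 3.00 CPM in any library, and those of T cells to 3298 to 5745 CPM. Promoters came from RefSeq.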

Additional observations from a re-analysis of the deposited data

Results flagged for a closer look

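In 5 cases the effect of treatment or tissue on a member differed between populations by a test of the difference itself (edgeR, adjusted over all genes). The anti-IL-2 effect on Havcr2 in batches 181201 and 181212 was 1.27 ± 0.13 higher on the log2 scale in gut than in spleen CD4 cells (adjusted p = 0.000249), and in the spleen it differed between CD4 and CD8 cells by -0.91 ± 0.11 (0.00211). For Pdcd1 it was 0.37 ± 0.10 higher in gut than in spleen CD4 cells (0.0436), and for Tigit it differed between gut and spleen CD8 cells by -0.43 ± 0.10 (0.0335). The Pdcd1 call was lost without any of 8 single libraries and the Tigit call without any of 7, and both without batch as a term (adjusted p = 0.0792 and 0.103), as was that of Havcr2 between CD4 and CD8 cells (0.0632). The difference between gut and spleen in Tox2 was -1.06 ± 0.21 in CD4 relative to CD8 cells (0.00975), and it did not pass without the pairing by batch and label (0.861). In the gut these treatment effects rest on 1 IgG library.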

How the results depend on the processing

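Over 210 values of members, 1718 recomputed values kept their side of the threshold in 1608 cases, lost the call in 78 and gained it in 32. No value that was called before or after changed sign, but 89 of the 1608, which passed in neither case, did. Of these, 52 came from leaving out 1 library and 18 from leaving out batch 190306, among them the treatment values over all batches of Entpd1 (0.34 to -0.33 in gut CD4 and 0.15 to -0.40 in gut CD8 cells), Ctla4 (-0.43 to 0.43 in gut CD8 cells), Cd274 (-0.23 to 0.23 in gut CD4 cells) and Lag3 (-0.15 to 0.21 in spleen CD4 cells). Without batch 190306 the first model called 5, 6, 4 and 4 members for treatment in spleen CD4, spleen CD8, gut CD4 and gut CD8 cells, in place of 0. With separate terms for that batch the same counts stood beside 21%, 12.4%, 12.1% and 11% of all genes. The share called in the fit without the batch is not given here, so its counts are no result about the members. Without the replicate block, that is with libraries not paired by batch, the model of tissue and cell type called 4 and 3 members between tissues in CD4 and CD8 cells (8 and 6 with it), 7 between spleen CD4 and CD8 (9 with it) and 5 between gut CD4 and CD8 cells (8 with it). For treatment in batches 181201 and 181212 the fit without the block gave 4, 5, 3 and 3 in place of 5, 6, 4 and 4. The tests of differences between populations then called 1 member between gut and spleen CD4 cells (2 with it) and 0 each for gut against spleen CD8, spleen CD4 against CD8, and the tissue difference between cell types (1 each with it). The shares of all genes in the fits without the block are not given here. Within the IgG label, 1 and 2 members were called between tissues in CD4 and CD8 cells (16.3% and 18.7% of all genes). Between cell types 4 and 3 were called in spleen and gut (28% and 9.32% of all genes). Within the anti-IL-2 label the counts were 2 and 1 (19.4% and 17.8% of all genes), and 4 and 4 (31.4% and 22.6%). Those counts come from the first model, fitted to all 22 libraries, whose spread holds the disagreement between batches. For the tissue difference between cell types DESeq2 and limma voom called 2 members each (962 and 630 of all genes), and edgeR 1 (597 of all genes).

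Leaving out 1 library at a time gave 0 members for treatment over all batches, beside at most 2 of all genes. For batches 181201 and 181212 it gave 3 to 5 in spleen CD4, 4 to 6 in spleen CD8, 2 to 5 in gut CD4 and 3 to 4 in gut CD8 cells. The 3 came without the spleen CD4 IgG library of batch 181212 and the 2 without the gut CD4 anti-IL-2 library of that batch. Between populations it gave 1 to 3 for gut against spleen CD4, 0 to 1 for gut against spleen CD8 and 1 for spleen CD4 against CD8, and 1 to 2 for the tissue difference between cell types. Leaving out a gut IgG library of batch 181212 leaves the gut comparison of batches 181201 and 181212 without IgG, so it has no value. Over all genes, edgeR called 2694, 1592, 1556 and 1412 for treatment in batches 181201 and 181212, and DESeq2 1512, 844, 713 and 651. Leaving out 1 library gave 1613 to 2789, 696 to 1675, 642 to 1684 and 864 to 1540, and moved these edgeR counts by over 1.5 times in 8 cases. They fell to 1613 without the spleen CD4 anti-IL-2 library of batch 181201, to between 696 and 958 without any of the 4 spleen CD8 libraries of these batches, to 884 and 642 without the gut CD4 anti-IL-2 library of batch 181201 or 181212, and to 864 without the gut CD8 anti-IL-2 library of batch 181212. For the tests of differences between populations they ran from 275 to 762 (gut against spleen CD4), 67 to 386 (gut against spleen CD8), 34 to 150 (spleen CD4 against CD8), 5 to 23 (gut CD4 against CD8) and 315 to 836 (tissue difference between cell types), with 710, 328, 144, 10 and 597 over all libraries. The lowest level of a member was 6.15 CPM, in libraries of at least 14628806 counts. The cause of each lost call was not tested.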
